A study of Mus musculus with 9 samples.

Results

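Claudins and the genes that keep an epithelium an epithelium were followed through fetal thymic lobes of 3 mouse genotypes. The set held 10 genes chosen by symbol: the claudin genes Cldn3, Cldn4, Cldn6 and Cldn7, the adhesion genes Epcam and Cdh1, the splicing factor genes Esrp1 and Esrp2, the transcription factor gene Grhl2 and the surface protein gene Plet1. Each had 1 transcript cluster on the array, so all 10 of 10 were measured, among 22206 clusters and 19505 gene symbols in all. They were chosen with earlier results of these data known, so their number of calls is a description of the set and not a test of it.

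The samples were total RNA of thymic lobes from C57BL/6 embryos of day e13.5 on Affymetrix Clariom S arrays, with 3 arrays for each genotype. The genotypes were wild type, Foxn1933/1089 (2 different mutant alleles of Foxn1, the factor that drives thymic epithelial differentiation; here, Foxn1 mutants) and Tbx1neo2/neo2 (both alleles neo2, known to lower expression of the pharyngeal T-box factor Tbx1; here, Tbx1 mutants). The titles of the wild type samples carry the same prefix as those of the Foxn1 mutants, while Tbx1 mutant titles carry another, so a wild type sample with the Tbx1 prefix was not analysed here. Nothing in the labels gives sex, pooling of embryos or whether the samples of a genotype are separate litters, so a p-value here speaks only of the spread among these samples, which may be technical.

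Tight junctions seal the space between neighbouring epithelial cells, and claudins are the membrane proteins that form their strands and set what may pass. E-cadherin, the product of Cdh1, holds the same cells together at adherens junctions, EpCAM is a pan-epithelial surface protein that binds and stabilises claudin-7, the ESRP proteins impose epithelial splicing, and GRHL2 activates junction genes that include Cdh1 and Cldn4. In the fetal thymus, cells bearing claudin-3 and claudin-4 are known as precursors of medullary epithelium, and PLET1 marks epithelial progenitors. The thymus and the parathyroid arise together from the third pharyngeal pouch, so lobes dissected at this age can carry parathyroid tissue.

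The stretch just upstream of a gene's start is shown for the claudin whose level separated the genotypes, Cldn7, and for Cldn4 with its most similar member, Plet1, and its neighbour on the chromosome, Cldn3. RefSeq promoter entries on build GRCm38.p6 were matched for 6 of the 10 genes; Cdh1, Esrp1, Esrp2 and Grhl2 have no entry in the table. Each line gives the 250 bases before the most upstream start, 5′ to 3′ on the gene's strand. Capitals mark matches, on either strand, to the E-box CACCTG that SNAI and ZEB repressors bind, to the GC box GGGCGG of SP and KLF factors and to TATAAA.
Cldn7, chr11:69964529-69964778, plus strand: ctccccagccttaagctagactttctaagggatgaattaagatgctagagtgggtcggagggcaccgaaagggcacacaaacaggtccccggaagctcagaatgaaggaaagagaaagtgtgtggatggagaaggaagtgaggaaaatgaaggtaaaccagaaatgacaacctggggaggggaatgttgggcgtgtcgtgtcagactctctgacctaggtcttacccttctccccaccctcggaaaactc
Cldn4, chr5:134946935-134947184, minus strand: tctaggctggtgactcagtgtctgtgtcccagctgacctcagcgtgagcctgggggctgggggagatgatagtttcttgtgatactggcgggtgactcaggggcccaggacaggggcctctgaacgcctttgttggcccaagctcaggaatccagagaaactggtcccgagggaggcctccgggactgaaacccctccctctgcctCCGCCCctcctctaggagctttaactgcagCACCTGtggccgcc
Cldn3, chr5:134985964-134986213, plus strand: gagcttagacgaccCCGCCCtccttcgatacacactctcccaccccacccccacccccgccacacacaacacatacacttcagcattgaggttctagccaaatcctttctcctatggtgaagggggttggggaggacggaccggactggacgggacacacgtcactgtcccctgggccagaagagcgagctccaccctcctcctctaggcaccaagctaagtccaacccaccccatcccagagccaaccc
Plet1, chr9:50494275-50494524, plus strand: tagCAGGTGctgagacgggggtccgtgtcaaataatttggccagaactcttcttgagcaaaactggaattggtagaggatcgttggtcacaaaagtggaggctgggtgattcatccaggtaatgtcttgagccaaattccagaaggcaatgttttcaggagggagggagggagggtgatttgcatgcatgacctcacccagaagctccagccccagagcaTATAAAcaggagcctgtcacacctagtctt

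The windows had little in common. No window of the 6 held the grainyhead palindrome AACCGGTT or its open form AACNNGTT, which contains it; among all 32851 windows of this length the shares were 0.116% and 3.64%. Cldn4 had an E-box beginning 14 bases before the start and a GC box at 44, whereas Plet1 had an E-box at 247 and TATAAA at 30, and Cldn3 had a single GC box at 236. Of the 2 Cldn7 starts in the table, the window of the upstream one held none of these letters. An E-box stood in 17.2% of all windows, a GC box in 32.7% and TATAAA in 12.4%. Epcam, not printed, had E-boxes at 187 and 19 and a GC box at 58, and Cldn6 an E-box at 93 and GC boxes at 140 and 8. Cldn4 and Cldn3 are adjacent genes in the RefSeq annotation, as are Cldn6 and Cldn9, and Cdh1 lies beside the P-cadherin gene Cdh3. A match describes the letters of these windows only.

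Values are the deposited log2 signals. The array medians lay between 5.09 and 5.20 and those of the negative-control probes, a rough guide to background, between 4.27 and 4.94. Precision is limited by the small number of arrays. On 2 of them, the first wild type and the second Foxn1 mutant replicate, here called thymus-poor, most genes of the thymic epithelium list read low. The gene of a cortical epithelial protease, Prss16, read 4.24 and 4.45 there and 13.87 to 14.43 on the other 7 arrays. Not every gene of that list did so. Eya1 was highest on these 2 arrays (15.40 and 13.04, beside 11.31 to 12.25 elsewhere), and Pax9 lay within the range of the others. The differences of the 10 genes from wild type that are named below are also given without these 2 arrays. Uty, on the Y chromosome, read 7.56 to 8.84 on wild type arrays and 8.47 on Tbx1 mutant replicate 1. It read 2.47 to 3.71 on the remaining arrays, which include every Foxn1 mutant array. Between Foxn1 mutants and wild type, the part of Uty therefore cannot be told apart from genotype. In the comparisons with the Tbx1 mutants its part was not tested. In whole lobes, fewer cells of a type and less RNA per cell cannot be told apart.

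Only 1 of the 10 genes changed by the test over all clusters. Cldn7 fell 4.41-fold in the Tbx1 mutants against wild type (95% interval 3.08 to 6.33), and it was also lower on every Foxn1 mutant array than on every wild type array, without passing the test there. The other 9 genes were not called in any comparison. Cldn4, Cldn3 and Plet1 read low on all Tbx1 mutant arrays and varied widely within wild type, and the means of Cdh1 and Esrp1 lay within 0.18 log2 units of each other in all 3 genotypes.

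For Cldn7 the wild type arrays, replicates 1 to 3 as in all such lists here, read 9.94, 9.69 and 9.62. Those of the Foxn1 mutants read 8.95, 8.94 and 8.82, and those of the Tbx1 mutants 7.20, 7.98 and 7.65. The 3 genotypes did not overlap, and the spread within each was small beside the steps between them (SD 0.17, 0.07 and 0.39, n = 3 each). An order of wild type above Foxn1 mutants above Tbx1 mutants with no overlap was found at 20 of 22206 clusters (0.0901%). Tbx1 mutants minus wild type gave -2.14 ± 0.23 (log2, SE; limma, adjusted p = 0.0354). Between Foxn1 mutants and wild type it was -0.85 ± 0.23 (limma, adjusted p = 1.00), 1.80-fold lower, and between Foxn1 mutants and Tbx1 mutants 1.30 ± 0.23 (limma, adjusted p = 0.886). In the comparison of the Tbx1 mutants with wild type 0.0135% of all clusters were called; the shares were 0% for the Foxn1 mutants against wild type and 0% between the mutants. At an unadjusted p under 0.05 limma had 841 (3.79%), 898 (4.04%) and 661 clusters (2.98%) in these 3 comparisons.

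Some alternatives tried cannot alter a difference of group means. They were filters on dim clusters, the robust trended fit, the compared genotypes alone, a threshold of 0.10 and omitting a Foxn1 mutant array. In the others the fall of Cldn7 in the Tbx1 mutants lay between -2.33 and -1.94, and its call did not hold in most alternatives. Each title carries a date code (A, B and C, which the labels do not explain). Code A held 1 array of each genotype, its Foxn1 mutant array being thymus-poor. Code B held 2 Foxn1 mutant arrays and code C 2 Tbx1 mutant arrays, each with 1 wild type array, thymus-poor in code C. The fall of Cldn7 in the Tbx1 mutants was -2.42 in code A and -2.13 in code C, and -2.28 with the code as a block (limma, adjusted p = 0.0534). Without both thymus-poor arrays it was -2.05 (adjusted p = 0.0881), and with any 1 array left out it lay between -2.33 and -1.94, called only without wild type replicate 2 (adjusted p 0.0412 to 0.301). The Foxn1 mutants stood at -0.68 against wild type in code A and -0.80 in code B, and at -0.77 without the thymus-poor arrays.

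**Figure D1:**
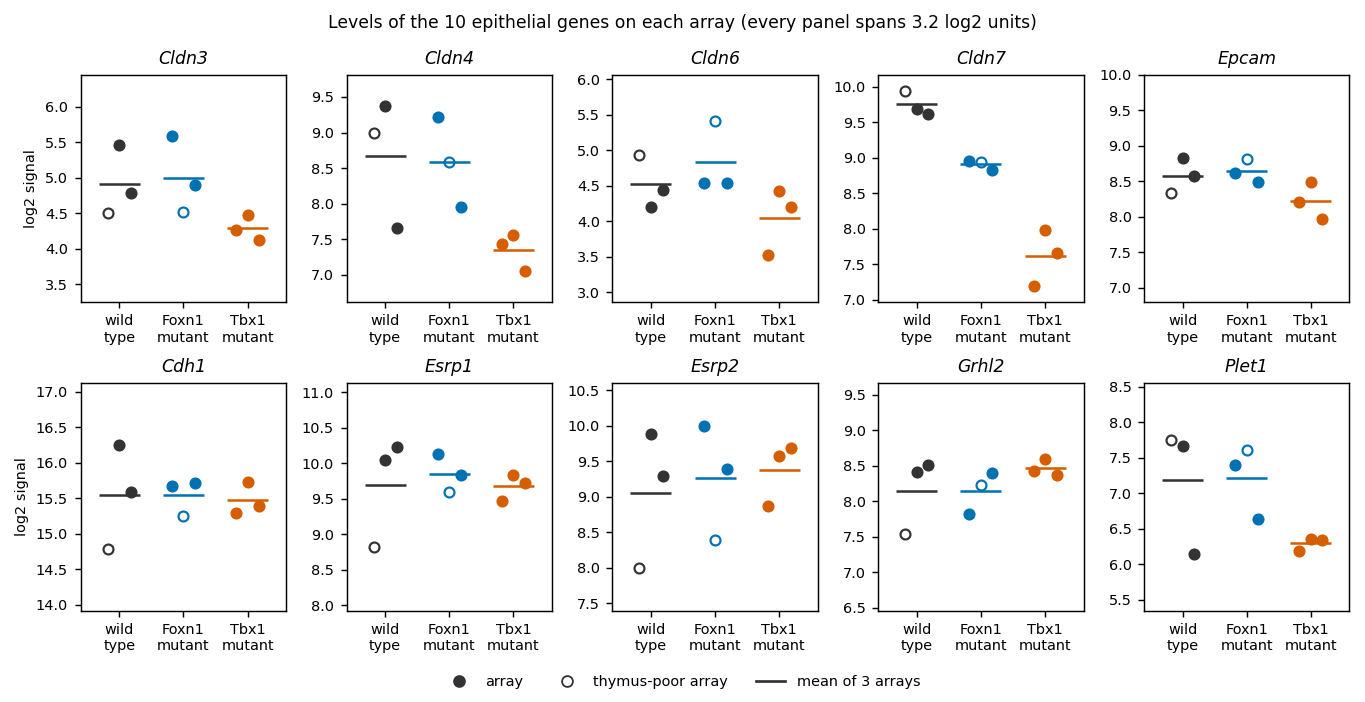
Log2 signal (y axis) of the 10 genes on each of the 9 arrays, by genotype; circles are arrays, open circles the 2 thymus-poor arrays, and lines the means of 3 arrays. Cldn7 steps down from wild type (9.62 to 9.94) through the Foxn1 mutants (8.82 to 8.95) to the Tbx1 mutants (7.20 to 7.98), while the other genes overlap between wild type and Foxn1 mutants.

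Epcam, whose product partners claudin-7, moved much less. It read 8.33, 8.83 and 8.57 on wild type arrays, 8.62, 8.82 and 8.49 on Foxn1 mutant arrays and 8.21, 8.50 and 7.97 on Tbx1 mutant arrays. All 3 genotypes overlapped, and the whole range over 9 arrays was 0.86 log2 units. The Tbx1 mutants differed from wild type by -0.35 ± 0.22 (SE, 95% interval -0.85 to 0.15; limma, adjusted p = 1.00) and the Foxn1 mutants by 0.06 ± 0.22 (-0.44 to 0.56). Without both thymus-poor arrays these were -0.48 and -0.15, the latter with its sign turned (limma, adjusted p = 0.644 and 0.957).

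The log2 signal of Cldn7 minus that of Epcam on the same array was 1.61, 0.86 and 1.05 for wild type, 0.33, 0.12 and 0.33 for the Foxn1 mutants and -1.01, -0.52 and -0.32 for the Tbx1 mutants. The mean of Cldn7 minus Epcam was 1.17 ± 0.39 on wild type arrays, 0.26 ± 0.12 on Foxn1 mutant arrays and -0.62 ± 0.36 on Tbx1 mutant arrays (SD, n = 3 each). The Tbx1 mutants minus wild type stood at -1.79, and no array of one genotype overlapped another genotype. A two-sided exact permutation test gave p = 0.1 in each of the 3 comparisons (0.1 after Benjamini-Hochberg adjustment over the 3), the smallest that 3 arrays against 3 can give. With any 1 array left out the value for Tbx1 mutants minus wild type lay between -1.94 and -1.57. Set against Cdh1 instead, the Tbx1 mutants (-8.09, -7.75 and -7.74) stayed under all other arrays, whereas wild type (-4.84, -6.56 and -5.96) and the Foxn1 mutants (-6.71, -6.31 and -6.90) overlapped.

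Cldn4 was low in the Tbx1 mutants and uneven elsewhere. Its signal was 8.996, 9.38 and 7.65 on wild type arrays and 9.22, 8.58 and 7.95 on Foxn1 mutant arrays. On the Tbx1 mutants it was 7.43, 7.56 and 7.05, under every array of the other genotypes, with wild type replicate 3 the nearest of those. The difference from wild type was -1.33 ± 0.46 for the Tbx1 mutants (SE, 95% interval -2.36 to -0.30; limma, adjusted p = 1.00) and -0.09 ± 0.46 for the Foxn1 mutants (-1.12 to 0.94; 0.07 without both thymus-poor arrays). It was -0.22 within code A and -1.69 within code C, and -1.17 without both thymus-poor arrays, so its size differed with the wild type array it was set against. For the Foxn1 mutants it was 0.93 within code A and -0.80 within code B, of opposite sign, and the wild type and Foxn1 mutant means did not differ beyond their spread.

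Plet1 followed Cldn4 from array to array. It read 7.76, 7.66 and 6.14 on wild type arrays, 7.40, 7.60 and 6.63 on Foxn1 mutant arrays and 6.19, 6.36 and 6.34 on Tbx1 mutant arrays. Wild type replicate 3, lowest of its genotype for Cldn4, was the lowest of all 9 arrays for Plet1, and Foxn1 mutant replicate 3 was again the lowest of the Foxn1 mutants. Tbx1 mutants minus wild type gave -0.89 ± 0.43 (SE, 95% interval -1.84 to 0.07; limma, adjusted p = 1.00), and 0.05 within code A against -1.40 within code C. Without both thymus-poor arrays it was -0.60 (limma, adjusted p = 0.756). Foxn1 mutants and Tbx1 mutants did not overlap, with a difference of 0.92 ± 0.43 (limma, adjusted p = 1.00).

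As a description over 9 arrays, Pearson's r between Cldn4 and Plet1 was 0.92, the highest of the 45 pairs among the 10 genes. It was 0.95 over the 7 arrays without the thymus-poor ones and 0.87 for deviations from each genotype's mean. Points of one genotype share that genotype, so r over all arrays also carries the low Tbx1 mutants. The plot of both pairs shows wild type replicate 3 beside the Tbx1 mutants for Cldn4 and Plet1, just outside their range for each gene.

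**Figure D2:**
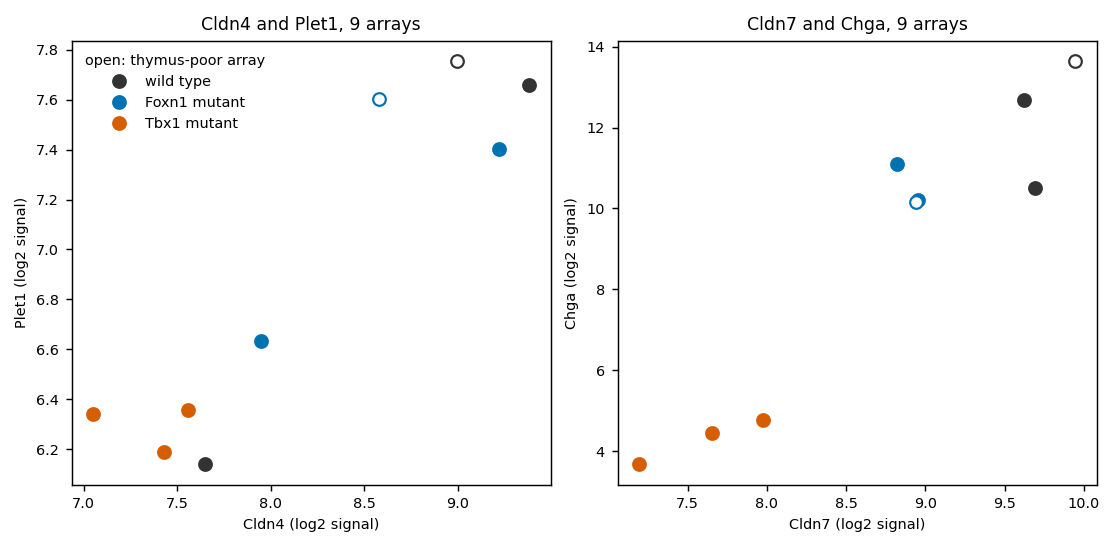
Log2 signals of Plet1 against Cldn4 (left) and of Chga against Cldn7 (right) on the 9 arrays, coloured by genotype, with open circles for the thymus-poor arrays. In the left panel wild type replicate 3 (Cldn4 at 7.65, Plet1 at 6.14) lies beside the Tbx1 mutants; in the right panel the Tbx1 mutants, with Chga at 3.68 to 4.78, stand apart from all other arrays.

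Cldn3, the neighbour of Cldn4 on the chromosome, lay near background. It read 4.50, 5.46 and 4.79 on wild type arrays, 5.59, 4.51 and 4.90 on Foxn1 mutant arrays and 4.26, 4.48 and 4.12 on Tbx1 mutant arrays, and was above the negative-control median on 2 arrays of wild type, 2 of the Foxn1 mutants and 0 of the Tbx1 mutants. Its level in the Tbx1 mutants is therefore only a bound, and the measured difference from wild type of -0.63 ± 0.33 (SE; limma, adjusted p = 1.00) is given without a fold; it was -0.84 without both thymus-poor arrays (limma, adjusted p = 0.504). The highest arrays of Cldn3, Foxn1 mutant replicate 1 and wild type replicate 2, were also the 2 highest for Cldn4, and r between them was 0.75 over 9 arrays and 0.96 over 7.

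Cldn6, a claudin of early embryonic epithelia, was at the same low level. Its values were 4.94, 4.19 and 4.44 on wild type arrays, 4.54, 5.41 and 4.54 on Foxn1 mutant arrays and 3.52, 4.43 and 4.19 on Tbx1 mutant arrays. It exceeded the negative-control median on 4 of 9 arrays, none of them a Tbx1 mutant. Both thymus-poor arrays were the highest, and the neighbouring gene Cldn9 was highest on the same 2, at 6.30 and 8.27 against 4.38 to 5.27 elsewhere.

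Genes of the wider epithelial state differed little between genotypes and more between arrays. Cdh1 read 14.78, 16.25 and 15.58 on wild type arrays, 15.66, 15.25 and 15.72 on Foxn1 mutant arrays and 15.29, 15.73 and 15.39 on Tbx1 mutant arrays. Every genotype overlapped the others, and the thymus-poor arrays were the 2 lowest. Its difference from wild type was 0.00 ± 0.35 on Foxn1 mutant arrays (SE, 95% interval -0.78 to 0.78) and -0.07 ± 0.35 on Tbx1 mutant arrays (-0.85 to 0.71; limma, adjusted p = 1.00 in both). Changes smaller than the ends of these intervals could not be told from none with these arrays.

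Esrp1 had values of 8.82, 10.04 and 10.22 on wild type arrays, 10.13, 9.59 and 9.83 on Foxn1 mutant arrays and 9.46, 9.84 and 9.71 on Tbx1 mutant arrays. Esrp2 had values of 8.01, 9.89 and 9.29, then 9.99, 8.40 and 9.39, then 8.87, 9.57 and 9.68 in the same order of genotypes. Wild type replicate 1 was lowest for both paralogues, whose r over 9 arrays was 0.83, and all genotypes overlapped. Against wild type the Tbx1 mutants stood at -0.02 ± 0.35 for Esrp1 (SE, 95% interval -0.81 to 0.77) and 0.31 ± 0.53 for Esrp2 (-0.87 to 1.49), and the Foxn1 mutants at 0.16 ± 0.35 and 0.20 ± 0.53. Without both thymus-poor arrays the Tbx1 mutants stood at -0.46 for Esrp1, -0.21 for Esrp2 and -0.45 for Cdh1 (limma, adjusted p = 0.643, 0.889 and 0.708), so the sign of Esrp2 turned. The Foxn1 mutants then stood at -0.15, 0.10 and -0.23 for these 3 genes, with the sign of Esrp1 and Cdh1 turned (adjusted p = 0.954, 0.976 and 0.937). A gene-level signal does not report which splice forms these factors produced.

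Grhl2 read 7.54, 8.41 and 8.51 on wild type arrays, 7.82, 8.22 and 8.41 on Foxn1 mutant arrays and 8.43, 8.59 and 8.37 on Tbx1 mutant arrays. It was as high in the Tbx1 mutants, where Cldn4 and Cldn7 were lowest, as on the other arrays. The difference from wild type was 0.31 ± 0.29 on Tbx1 mutant arrays (SE, 95% interval -0.33 to 0.96; 0.00 without both thymus-poor arrays) and 0.00 ± 0.29 on Foxn1 mutant arrays (-0.65 to 0.64; -0.35 without them). Over the 9 arrays r was -0.63 with Cldn4 and -0.70 with Plet1, and 0.57 with Cdh1 (0.01 without the thymus-poor arrays). The part of Grhl2 in the levels of these genes was not tested.

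The 10 genes did not vary as 1 block. Their 45 pairwise r values ran from -0.70 to 0.92 with a median of 0.43, and 14 were below 0. The 4 pairs above 0.8 were Cldn4 with Plet1 and the 3 pairs among Cdh1, Esrp1 and Esrp2. Those 3 pairs stood at 0.54 to 0.61 without the thymus-poor arrays, on which these genes were low. Between the groupings, r of Cldn4 with Esrp1 was -0.05 and with Cdh1 0.15 over 9 arrays, and 0.57 and 0.76 without the thymus-poor ones.

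**Figure D3:**
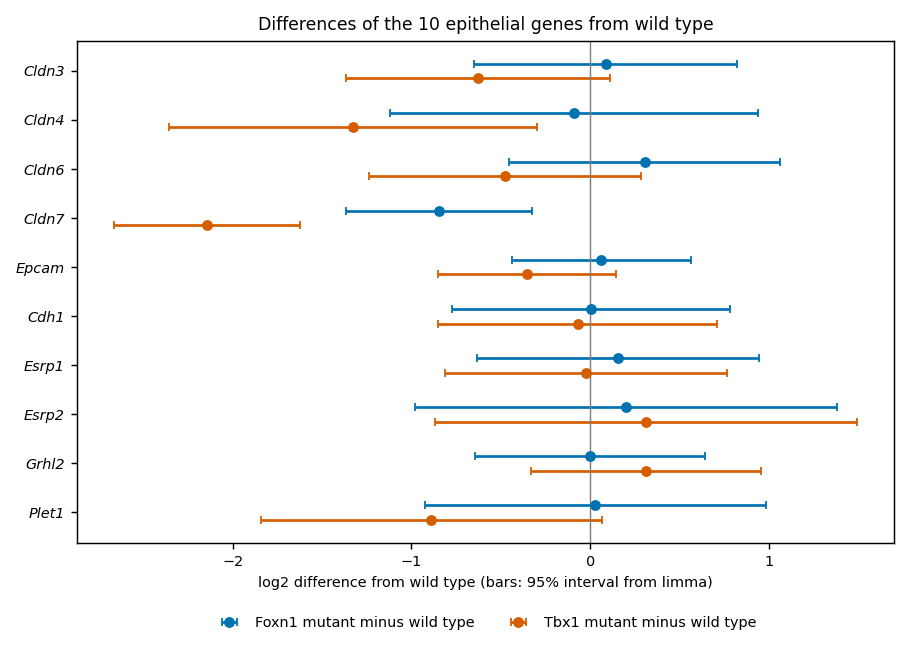
Log2 difference from wild type (x axis) of each of the 10 genes in the Foxn1 mutants (blue) and the Tbx1 mutants (orange); points are estimates and bars 95% intervals from limma over 9 arrays. Cldn7 in the Tbx1 mutants, at -2.14, was the only difference called over all clusters; both comparisons share the 3 wild type arrays.

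Over the 10 genes the median difference was -0.42 between Tbx1 mutants and wild type and 0.05 between Foxn1 mutants and wild type, beside 0.01 and 0.02 over all clusters. In the Tbx1 mutants 8 of the 10 estimates were negative and 3 genes (Cldn3, Cldn4 and Cldn7) lay under wild type on every array, where 4.27% of all clusters did. In the Foxn1 mutants 3 of 10 were negative and Cldn7 alone lay under wild type on every array (3.43% of all clusters). Between the mutants 5 genes, the 4 claudins and Plet1, lay higher on every Foxn1 mutant array than on any Tbx1 mutant array (5% of all clusters), and limma called 0 of the 10, with 3 higher at an unadjusted p under 0.05 (Cldn4, Cldn6 and Cldn7; 1.68% of all clusters). Lower at that level were 2 genes (Cldn4 and Cldn7) in the Tbx1 mutants against wild type, beside 1.82% of all clusters, and 1 (Cldn7) in the Foxn1 mutants, beside 1.77%. In the count between the mutants, Cldn6 lay near background, at a difference of 0.78 that was 0.49 without Foxn1 mutant replicate 2. All these counts describe a set chosen with results known.

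Other genes of the junction were read from lists named by function. Of 19 further claudins measured (Cldn25, the other of the 20 listed, was not analysed here), 0 were called by limma in any comparison, and 4 were above the negative-control median on all 9 arrays. Cldn8, a barrier-forming claudin, read 7.27, 7.14 and 7.34 on wild type arrays, 8.13, 7.21 and 7.81 on Foxn1 mutant arrays and 6.45, 6.67 and 6.66 on Tbx1 mutant arrays. The Tbx1 mutants were under every other array; they stood at -0.66 ± 0.25 against wild type, and Foxn1 minus Tbx1 mutants gave 1.13 ± 0.25 (SE; limma, adjusted p = 1.00 for both). Cldn15 differed by -0.67 ± 0.27 and Cldn17 by -0.48 ± 0.21, in the comparisons of the Foxn1 mutants with the Tbx1 mutants and with wild type, at levels under the negative-control median. Cldn5, the endothelial claudin, read 6.55 to 8.04 on wild type arrays, 7.46 to 8.55 on Foxn1 mutant arrays and 7.63 to 8.37 on Tbx1 mutant arrays.

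Among 21 scaffold, polarity and membrane partners of the tight junction 0 were called, with a median difference of -0.03 in both mutants against wild type. Crb3, an apical polarity protein of the Crumbs complex, had the lowest p in the Tbx1 mutants. It read 7.001, 7.15 and 6.76 on wild type arrays, 7.31, 6.30 and 6.76 on Foxn1 mutant arrays and 5.61, 5.59 and 5.98 on Tbx1 mutant arrays. All Tbx1 mutant arrays were lower than all others, and the difference from wild type was -1.24 ± 0.27 (SE, limma adjusted p = 0.612). This difference was -1.14 in code A and -1.22 in code C, each set against 1 wild type array. Occludin, Ocln, stood at -0.45 ± 0.20 in Tbx1 mutants minus wild type. The scaffold gene Mpdz stood at -0.80 ± 0.38 in Foxn1 minus Tbx1 mutants (SE; limma, adjusted p = 1.00 for both).

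The 18 adherens junction and desmosome genes gave 0 calls and medians of 0.14 (Tbx1 mutants) and 0.10 (Foxn1 mutants) against wild type. Here single arrays set the range: Dsc2, a desmosomal cadherin, read 7.55 and 7.91 on the thymus-poor arrays and 10.90 to 11.51 on the other 7. Dsp, desmoplakin, was at -0.88 ± 0.55 between Foxn1 and Tbx1 mutants, Pkp1 at -1.21 ± 0.88 there, and Ctnnd1 at 0.39 ± 0.29 between Foxn1 mutants and wild type (SE; limma, adjusted p = 1.00 for each). Of 27 further epithelial genes 0 were called, with medians of -0.07 (Tbx1 mutants) and -0.08 (Foxn1 mutants) against wild type. In the Tbx1 mutants 12 estimates were positive and 15 negative, from -1.82 (Mal2) to 1.53 (the keratin gene Krt18). Lower there than in wild type at an unadjusted p under 0.05 were 3 (Rab25, Prss8 and Mal2), beside 1.82% of all clusters. Rab25, a GTPase of apical recycling, was at -1.21 ± 0.40, with arrays of 6.68, 7.62 and 6.81 on wild type arrays and 5.44, 5.61 and 6.43 on Tbx1 mutant arrays. The protease gene Prss8 was at -0.64 ± 0.27, and its inhibitor-family gene Spint2 at 0.82 ± 0.33 between Foxn1 and Tbx1 mutants (limma, adjusted p = 1.00 for each).

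Repressors of the epithelial state and mesenchymal genes gave 0 calls among 10 measured genes. Fn1, fibronectin, was at -0.98 ± 0.35 between Foxn1 and Tbx1 mutants, and Twist1 stood at 0.61 ± 0.41 in Foxn1 mutants minus wild type (SE; limma, adjusted p = 1.00 for each). Snai1 and Twist2 were under the negative-control median on all 9 arrays. The means of the list on single arrays lay between 9.17 and 9.86 on wild type arrays, 9.30 and 10.33 on Foxn1 mutant arrays and 9.70 and 9.93 on Tbx1 mutant arrays.

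Markers of other cells moved beside these genes. Pth, Chga and Casr, markers of parathyroid cells, were under wild type on every Tbx1 mutant array, and differed by -6.62, -7.97 and -5.75 (limma, adjusted p = 0.00892, 0.00892 and 0.107), and Chgb, the other marker measured of 5 listed, was below the negative-control median on all 9 arrays. The mean of the 4 was 9.05 to 11.23 on wild type arrays and 8.30 to 9.69 on Foxn1 mutant arrays, which overlapped. On Tbx1 mutant arrays it was 4.95 to 5.28. Only the genotype averages thus stood in the order of Cldn7, whose genotypes did not overlap. In the Tbx1 mutants only 1 array of 3 had Chga over its negative-control median, and its difference is measured against a level near background. In Foxn1 mutants minus wild type, code A had Cldn7 at -0.68 with Pth, Casr and Chga at -1.88, -4.03 and -2.51, all lower. Code B had Cldn7 at -0.80 with Pth, Casr and Chga at 0.84, 0.02 and 0.14. Code A set 1 array against 1, the Foxn1 mutant one being thymus-poor, and code B set 2 against 1. The part of parathyroid tissue in the fall of Cldn7 was not tested. Ccl21a, a chemokine of the medullary list, was at -3.76 ± 0.60 on Tbx1 mutant arrays (SE; limma, adjusted p = 0.151), and of the other 7 genes of that list only Ltbr was above the negative-control median on all arrays.

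Mesenchyme, leukocytes and other tissues were read the same way. The mean of 6 mesenchyme markers was 11.56 to 12.22 on wild type arrays, 12.54 to 13.36 on Foxn1 mutant arrays and 12.66 to 13.07 on Tbx1 mutant arrays, higher on every mutant array, with Dcn, Col3a1 and Col1a1 at 1.56, 1.04 and 1.43 on Tbx1 mutant arrays (0 called). The endothelial mean was 7.40 to 8.01, 7.70 to 8.35 and 7.94 to 8.30. Leukocyte, neuron and muscle means followed single arrays: leukocytes stood at 7.52 and 7.73 on the thymus-poor arrays and 10.66 to 12.30 elsewhere, neurons at 12.59 on wild type replicate 1 and 5.93 to 6.33 elsewhere, and muscle at 8.22 on wild type replicate 2, 7.44 on Foxn1 mutant replicate 2 and 4.72 to 6.28 elsewhere. None of the 11 thyroid and foregut markers was above the negative-control median on all arrays; Pax8 stood at 7.31 on replicate 1 and 6.17 on replicate 2 of wild type, and at 3.36 to 4.31 elsewhere. Thymic epithelium markers (13 measured) averaged 7.25 and 7.40 on the thymus-poor arrays and 9.55 to 10.18 elsewhere. Pth and Chga were the only called genes of all 14 lists. The part of these tissues in the levels of the 10 genes was not tested.

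**Figure D4:**
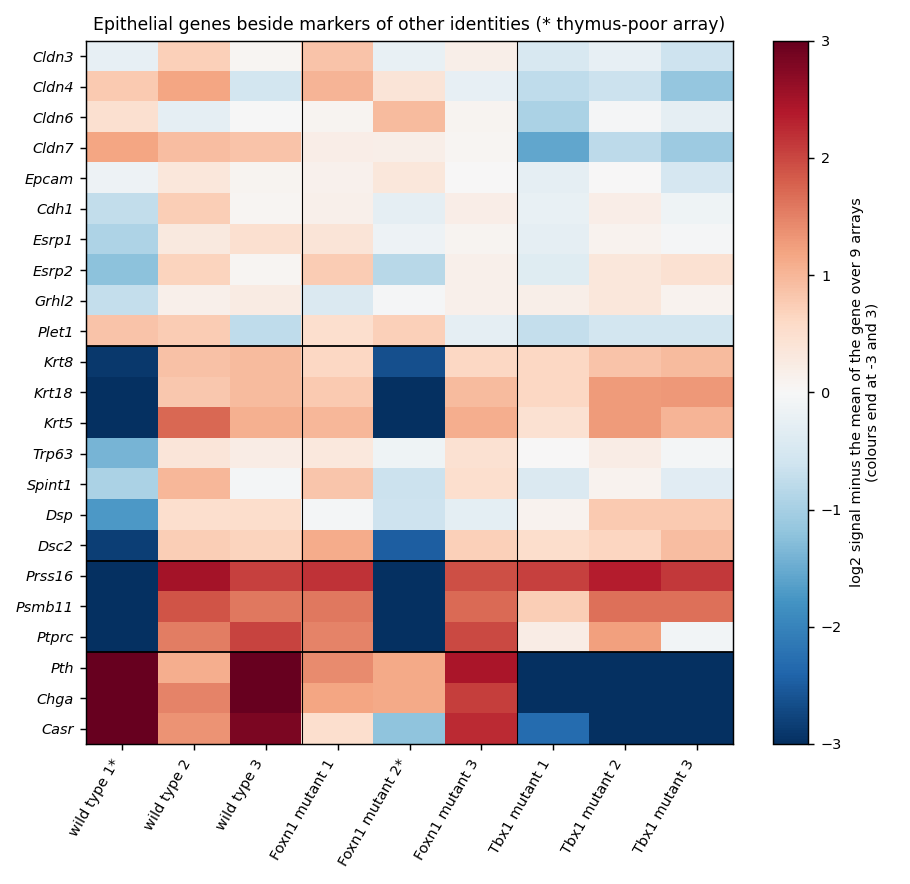
Log2 signal minus the gene's mean over 9 arrays (colour, ending at -3 and 3) for the 10 genes, 7 further epithelial genes, the thymic and leukocyte genes Prss16, Psmb11 and Ptprc, and 3 parathyroid genes; columns are arrays and stars mark the thymus-poor ones. Krt8 and Krt5 are low on both starred arrays (12.12 and 12.37 for Krt8, 15.62 to 15.97 elsewhere), where Cldn7 keeps the level of its genotype, and the parathyroid genes are low on the 3 Tbx1 mutants.

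On the thymus-poor arrays the set split. Keratin genes were far lower there, with Krt8 at 12.12 and 12.37 (15.62 to 15.97 elsewhere) and Krt5 at 8.68 and 8.50 (12.87 to 14.14). Cdh1, at 14.78 and 15.25, was lowest on both, and Esrp2, at 8.01 and 8.40, was too. Cldn4 (8.996 and 8.58), Plet1 (7.76 and 7.60) and Epcam (8.33 and 8.82) lay within the range of the other arrays or above it. Cldn7 was highest of all 9 on wild type replicate 1, which also had the highest Pth (14.13), Ccl21a (14.57) and neuron mean (12.59). On Foxn1 mutant replicate 2 Cldn7 was at the middle of its genotype, while Pth was lowest of that genotype at 11.95.

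Genes with the most similar pattern were sought among 10067 named clusters above the median level, by Pearson's r over 9 arrays and as a description. For the mean of the 10 genes the closest were Mkln1 (0.95), Amdhd2 (0.93), Dlg1 (0.92), Smim22 (0.91), Zdhhc16 (0.89), Wdr34 (0.89), Lypla2 (0.87) and Ppme1 (0.87). Dlg1 encodes a scaffold of the basolateral membrane, and Smim22 read 10.24 to 11.14 on wild type arrays, 10.52 to 10.92 on Foxn1 mutant arrays and 8.95 to 10.02 on Tbx1 mutant arrays. For Cldn7 the closest were Chga (0.95), Gng12 (0.95), Aar2 (0.95), Lrrn1 (0.93) and Nell1 (0.93), with Pth in place 8 (0.91). Over the 7 arrays without the thymus-poor ones these 5 had r of 0.94, 0.93, 0.93, 0.94 and 0.91 and ranked 37, 48, 51, 30 and 90. For Crb3 r was 0.85 with Cldn7 and 0.80 with Cldn4. Arrays of a genotype share that genotype, so these r values also carry the difference between genotypes.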

How the data were processed

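Log2 signals of 9 arrays were taken as deposited by the authors; range and medians fit a log2 scale, and software, normalization and build were not stated by any label or header. Of 28846 features, 22206 transcript clusters were kept and control features left out, of which 5222 negative controls served as a guide to background; 19572 clusters had 1 gene symbol in the platform annotation and 2634 are unnamed here. Where a symbol had several clusters, the one of highest mean stood for it; no member had more than 1. Genotypes come from the labels; replicates are numbered in accession order and pair nothing.

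A model with a term per genotype was fitted to all 9 arrays and all clusters with limma 3.58.1 in R 4.3.3 (two-sided, Benjamini-Hochberg over all clusters, threshold 0.05) and tested on simulated data. Single values were compared by exact permutation with scipy 1.17.1. Alternatives were quantile normalization, median centring, filters on dim clusters, array weights and a robust trended fit. Others were a block for date code, the compared genotypes alone, arrays left out and a threshold of 0.10 on the main fit. The members, the 14 context lists and the alternatives were chosen with earlier results of these data known. Named genes are the members, called list genes, up to 3 of lowest p per list, and the clusters of highest r with the members' mean (8) and with Cldn7 (5). Others were chosen after their values were seen. They were Cldn5, Cldn9, Dsc2, Krt8, Krt5, Krt18, Mal2, Snai1, Uty, Prss16, Eya1, Pax9, Ltbr and the genes likest to Cldn4, with those of the closing section. Promoters are RefSeq's on GRCm38.p6; figures used matplotlib 3.10.9.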

Additional observations from a re-analysis of the deposited data

How the results depend on the processing

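The count of called members between Tbx1 mutants and wild type was 1 (Cldn7). It was 0 with quantile normalization (Cldn7 at -2.11, adjusted p = 0.0667), 0 with a fixed block for date code, 0 with only the genotypes compared in the fit (adjusted p = 0.223) and 0 without both thymus-poor arrays. It was 0 to 1 with 1 array left out. In all, Cldn7 was called in 8 of 20 alternatives and not called in 12. The 8 include the main fit read at a threshold of 0.10, where the call followed from the main result. The log2 difference of Cldn7 lay between -2.33 and -1.94 throughout, though some alternatives cannot alter an estimate. Those alternatives also stand in the counts of sign changes below. In the other 2 comparisons 0 members were called under every alternative run. Estimates of uncalled members changed sign in 34 of 198 values for the Foxn1 mutants against wild type (Cldn3, Cldn4, Epcam, Cdh1, Esrp1, Esrp2, Grhl2 and Plet1), in 12 of 198 for the Tbx1 mutants against wild type and in 8 of 198 between mutants (Cdh1, Esrp1 and Esrp2 in both). In the date code block fit, Foxn1 minus Tbx1 mutants gave 1.58 for Cldn7, 1.52 for Cldn6, 0.14 for Cldn3, -0.56 for Cdh1, -0.33 for Esrp1 and -1.01 for Esrp2; only code A holds both mutants. Each symbol had 1 cluster, so using every cluster of a symbol changed nothing and was not run. Signals near the negative controls limit Cldn3 and Cldn6. No paired analysis was possible because replicate numbers were given in accession order.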

Other observations

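Cldn7 was 1 of 20 clusters whose arrays fell in the order wild type, Foxn1 mutants, Tbx1 mutants with no overlap, and 1 of 10 of these that were above the negative-control median on all 9 arrays. Lrrn1, a leucine-rich repeat membrane protein gene, had means of 11.15, 9.75 and 8.55 in that order, and Gng12, a G protein gamma subunit gene, 13.59, 13.01 and 12.38. Rhcg, an ammonium transporter gene of epithelia, had 6.38, 4.87 and 3.12, the last under the negative-control median. These genes were picked after the order was seen and have no test of their own. Among genes near the pattern of Plet1, Erbb3, a receptor of the EGF receptor family, had r of 0.95 with it over 9 arrays and 0.89 with Cldn4; it read 6.66, 7.20 and 5.59 on wild type arrays, 6.46, 7.09 and 5.66 on Foxn1 mutant arrays and 5.39, 5.37 and 5.52 on Tbx1 mutant arrays, with the lowest array of the first 2 genotypes again replicate 3.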
